A study of Mus musculus with 30 samples.

Results

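Complement genes were followed through RNA-seq of sorted cortical cells: C1qa, C1qb, C1qc, C3, C4b, C3ar1, C5ar1, Itgam and Serping1, taken by gene symbol from a table of 23993 genes, in which all 9 are listed. The cells came from the medial prefrontal cortex (mPFC) of C57BL/6 mice heterozygous for a Cre driver, either Sst-Cre or Pvalb-Cre, together with Ai9, a reporter that makes the red protein tdTomato in any cell in which Cre has ever been active. Cells were dissociated with papain and tdTomato-positive cells were collected by fluorescence-activated cell sorting (FACS). The groups were nonstressed Sst females (7 libraries), nonstressed Sst males (7), Sst males after 14 days of chronic unpredictable stress (CUS, 3) and nonstressed Pvalb males (7). All groups carried Cre and tdTomato, so none lacks the reporter. The labels give no age for single mice, and they do not say whether each library is 1 mouse, so p-values measure the spread between these samples, part of which may be technical.

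Complement is a set of plasma and tissue proteins that tag cells and debris for removal. C1q, built from the A, B and C chains encoded by C1qa, C1qb and C1qc, starts the classical pathway; C4 and C3 are then cleaved in turn, and the fragments they release or deposit are read by receptors on phagocytes. In the healthy brain microglia are the main source of C1q, and C1q, C3 and the C3 receptor built on Itgam are known for their part in the removal of synapses during development. Serping1 encodes the C1 inhibitor, which blocks the proteases attached to C1q.

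The labels call the cells interneurons. The 12 microglia markers had a mean of 7.77 ± 0.671 (SD, n = 22 samples) on the log2(FPKM + 1) scale, against 1.04 ± 0.378 for the 10 interneuron markers. Sst itself was between 0 and 49.3 FPKM and Pvalb between 0 and 5.07 FPKM. Sst was not higher in the Sst line: its mean was 9.24 FPKM in nonstressed Sst and 23.3 FPKM in Pvalb samples, a difference of -2.05 on the log2 scale (limma, adjusted p = 0.0488), which was -3.33 with male Sst samples (adjusted p = 0.00182), -0.95 with female ones (adjusted p = 0.137), -1.91 without SST0-M with SST1-M (adjusted p = 0.0523) and -1.65 without the 3 Pvalb samples rich in Xist described below (adjusted p = 0.463). Pvalb was lower in Sst samples too, at a mean of 0.373 against 2.64 FPKM (-1.42, adjusted p = 0.00441; -1.08, adjusted p = 0.211, without those 3). Astrocyte markers (6.07 ± 0.349), oligodendrocyte markers (6.35 ± 0.662) and endothelial and pericyte markers (3.41 ± 1.28) were present too, and macrophage and blood leukocyte markers were low (0.991 ± 0.448). The markers go against the label, so the material is called Sst or Pvalb samples, after the driver line. In bulk samples fewer cells of a type cannot be told apart from less RNA per cell.

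Pairs of libraries, SST0-M with SST1-M and PV0-M with PV2-M, were near copies of each other and were averaged, which left 22 samples. The male Sst controls carry either numbered titles (3 samples once the copies were averaged) or dated ones (3 samples), and all CUS libraries have dated titles. Dated is only a name given here to titles with a longer run of digits, such as SS04031R. The labels do not say that these are dates, and they explain neither kind of title. In the 6 dated libraries 53.5% to 75.7% of all FPKM fell on small nucleolar and Cajal body RNAs, against 1.87% to 8.29% in the 18 numbered libraries, while the upper quartile over genes was between 9.50 and 10.7 FPKM in all 24. SST-F, whose title holds no number and which was counted with the numbered libraries, stands apart from the other 6 females. Xist, the X-inactivation RNA, was at 300.2 to 333 FPKM in 3 of the 6 Pvalb samples labelled male, which were PV4-M, PV1-M and PV5-M. Values or counts without these libraries are given mainly beside member results whose call changed. For other genes and marker lists they are given only in part.

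The C1q genes lie side by side on mouse chromosome 4 (GRCm38.p6). C1qb spans 136880126 to 136886200, C1qc 136889801 to 136892936 and C1qa 136895916 to 136898844, all within 18719 bp, with gaps of 3600 and 2979 bp. No other annotated gene overlaps them. Their longest GENCODE M1 transcripts have similar lengths (1040 nt for C1qa, 1088 nt for C1qb and 1203 nt for C1qc) and GC contents of 57.4% to 59.5%. The other members lie apart from them: C4b and C3 on chromosome 17, C3ar1 on 6, C5ar1 and Itgam on 7, and Serping1 on 2.

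RefSeq promoters (GRCm38.p6, 250 bases before to 50 after the annotated start, 5′ to 3′ on the gene's strand) were at hand for 6 of the 9 members. The promoters of C1qb, C1qc and Itgam are shown. The levels of these genes went together across the samples (Pearson r = 0.896 to 0.976). Those of C3ar1 and C5ar1, whose promoters are not shown, went with them too (0.725 to 0.857). Capitals mark GAGGAA, or TTCCTC on the opposite strand, the letters of a purine-rich core of the kind bound by ETS-family factors such as PU.1, a regulator of myeloid genes.
C1qb (chr4:136886151-136886450, minus strand): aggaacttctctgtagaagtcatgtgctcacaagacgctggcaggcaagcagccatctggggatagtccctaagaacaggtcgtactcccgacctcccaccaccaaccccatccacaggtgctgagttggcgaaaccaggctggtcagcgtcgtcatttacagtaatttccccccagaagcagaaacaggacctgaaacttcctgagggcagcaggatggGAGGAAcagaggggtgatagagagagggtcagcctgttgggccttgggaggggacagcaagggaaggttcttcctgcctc
C1qc (chr4:136892865-136893164, minus strand): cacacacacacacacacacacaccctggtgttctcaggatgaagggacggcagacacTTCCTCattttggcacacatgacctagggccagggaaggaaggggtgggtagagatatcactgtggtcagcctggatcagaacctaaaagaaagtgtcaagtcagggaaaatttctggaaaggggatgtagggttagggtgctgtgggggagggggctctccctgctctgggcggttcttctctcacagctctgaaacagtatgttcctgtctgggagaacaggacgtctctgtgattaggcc
Itgam (chr7:128062390-128062689, plus strand): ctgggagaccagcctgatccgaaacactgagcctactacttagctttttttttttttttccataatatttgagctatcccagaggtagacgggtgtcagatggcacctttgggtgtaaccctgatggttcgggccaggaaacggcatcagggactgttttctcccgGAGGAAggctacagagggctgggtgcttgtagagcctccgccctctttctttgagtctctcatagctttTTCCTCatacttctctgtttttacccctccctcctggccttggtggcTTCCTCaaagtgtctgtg
The motif occurred once in each of the C1qb and C1qc windows and 3 times in the Itgam window. It was not found in those of C3, C3ar1 and C5ar1, so the windows shown are the ones that hold it. Of 32851 promoters of the same length, 28.3% hold it at least once and 0.7% at least 3 times. A match is only a match of letters.

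The recognition chains of C1q were among the most abundant transcripts. By mean FPKM over the 22 samples, C1qc ranked 35 of 23993 genes (967 ± 517 FPKM, SD), C1qb 37 (942 ± 446) and C1qa 166 (259 ± 175). FPKM is a level per length of transcript, so these can be compared between genes. Among the receptors, Itgam, the alpha chain of complement receptor 3, ranked 187 (235 ± 92.7), C3ar1, the C3a receptor, 1093 (47.8 ± 18.5) and C5ar1, the C5a receptor, 2836 (22.8 ± 15.9). The regulator Serping1 (2.01 ± 1.67) and the component C4b (1.88 ± 1.07) were low, with overlapping ranges, and C3 had a mean of 0.0733 ± 0.0794 FPKM and a highest value of 0.232. The central component of the cascade was thus below 0.4 FPKM, the limit used here for an expressed gene, in every sample, and it was not tested. C4b shares most of its sequence with C4a (mean 0.0910 FPKM), so the split of reads between them is uncertain. The spreads of C1qb and C1qc over samples overlapped, as did those of C1qa and Itgam, and of Serping1 and C4b. No test paired by library was run. Within libraries C1qa was above Itgam in every dated one (846 against 363 FPKM in SS04031R). It was far below Itgam in SST1-M (47.9 against 305).

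**Figure D1:**
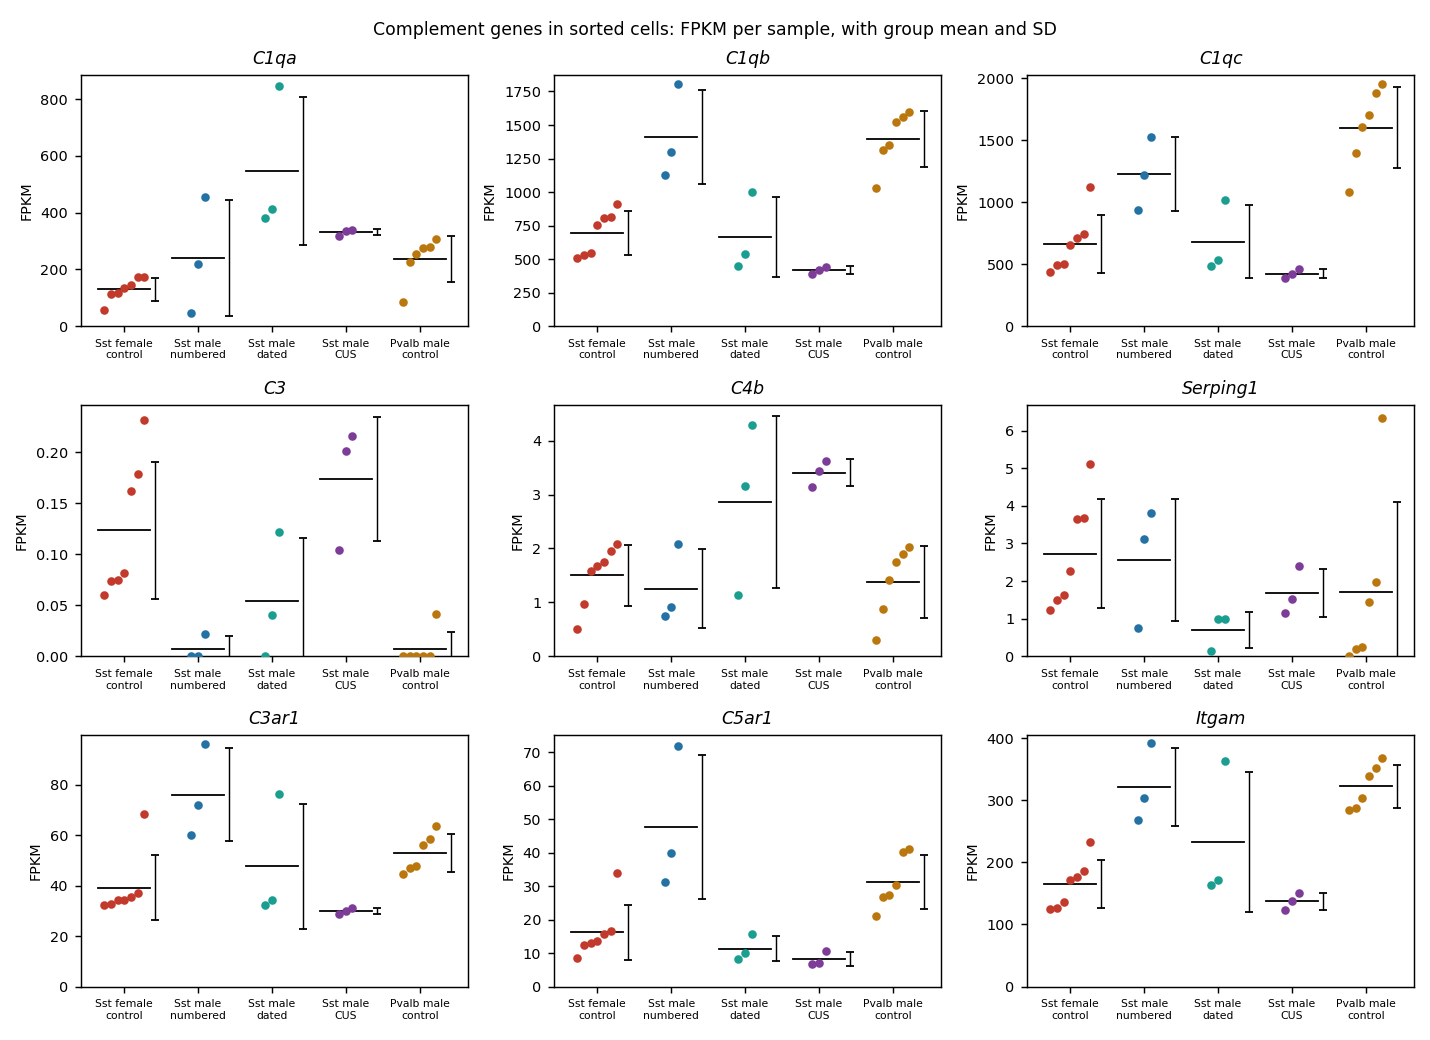
FPKM of each complement gene (vertical axes, linear, from 0) in each sample (points) of the 5 sets on the horizontal axes, with the mean (line) and SD (bar, cut off at 0). C1qb, C1qc, C5ar1 and Itgam are high in numbered male Sst and Pvalb samples and low in CUS samples, whereas C1qa is highest in the dated male samples.

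C1qc followed C1qb from library to library. The ratio of their FPKM was between 0.830 and 1.23 in all 24 libraries. C1qa did not follow them across all libraries. Its ratio to C1qb was 0.762 to 0.846 in the 6 dated libraries and 0.0369 to 0.254 in the 18 numbered ones, so the ranges did not overlap. The lowest ratios belonged to SST0-M and SST1-M (0.0370 and 0.0369), SST-F (0.0630) and PV0-M and PV2-M (0.0812 and 0.0813). In dated SST040241L, C1qa was 382 and C1qb 452 FPKM, whereas in numbered SST1-M they were 47.9 and 1299 FPKM. The split by title holds control and CUS mice on the dated side, and both sexes and both lines on the numbered side. The dated libraries are also those rich in small nucleolar RNA. The part of that difference in the ratio was not tested.

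Differences in these ratios were tested by two-sided exact permutation tests of log2 ratios, 8 in all, a measure chosen after the values were seen. Between dated and numbered male Sst controls the C1qa to C1qb ratio differed by 2.75 on the log2 scale (mean -0.29 ± 0.0860 against -3.04 ± 1.50, SD, n = 3 and 3; exact p = 0.1, the smallest that 3 against 3 allows, adjusted p = 0.267). Without SST0-M with SST1-M the difference was 1.89. Within the dated libraries CUS and control did not separate (difference -0.03, exact p = 0.6, adjusted p = 0.686), nor did females and numbered males (0.58, exact p = 0.4, adjusted p = 0.533). The C1qc to C1qb ratio was lower in Sst than in Pvalb controls by a small amount: it was 0.830 to 1.23 in 13 Sst and 1.05 to 1.22 in 6 Pvalb samples, a log2 difference of -0.28 (exact p = 0.00221, adjusted p = 0.0177). The sign was the same with numbered titles only (-0.32), with males only (-0.27), without PV0-M with PV2-M (-0.30) and without SST-F (-0.31). Without the 3 Pvalb samples rich in Xist the difference was -0.22 and missed the threshold before any adjustment (exact p = 0.0536).

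**Figure D2:**
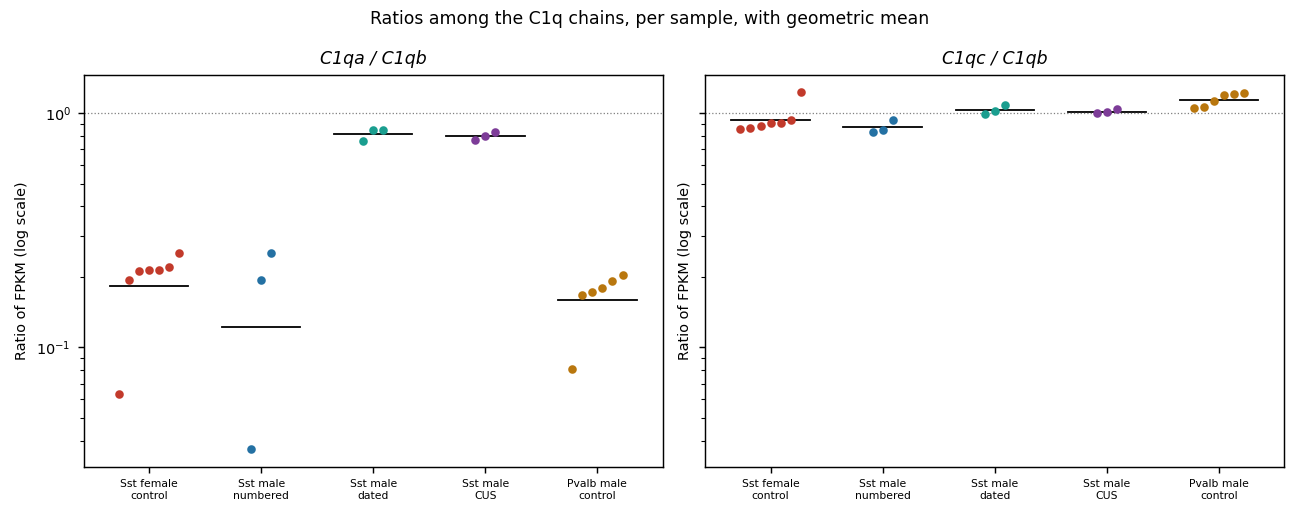
Ratio of FPKM of C1qa (left) and C1qc (right) to C1qb, on a log axis, per sample (points) with the geometric mean (line) in the 5 sets on the horizontal axes. C1qc stays between 0.830 and 1.23 of C1qb, while C1qa is 0.762 or more in the dated male control and CUS samples and 0.254 or less elsewhere.

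The first comparison asked whether nonstressed female and male Sst samples differ. All females were counted as numbered, SST-F without a number in its title, so they were set against the 3 numbered males. Lower in females were 3 members of 8 tested, namely the C1q chain gene C1qb and the receptor genes C5ar1 and Itgam, when 3.41% of the 14443 genes tested passed the threshold (limma on log2(FPKM + 1), Benjamini-Hochberg adjusted p below 0.05). The median difference over the 8 was -0.94, against 0.05 over all genes tested.

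C1qb had a lowest, median and highest value of 509, 753 and 914 FPKM in the females, and was 1130.3, 1297 and 1805 FPKM in the males. The difference was -1.02 ± 0.25 on the log2 scale (SE, adjusted p = 0.0453). C1qc gave a difference of -0.92 ± 0.29 that did not pass (adjusted p = 0.0897), with SST-F, at 1120.4 FPKM, inside the male range of 938 to 1530.1. For Itgam the females had 126, 171 and 233 FPKM and the males 268, 304 and 392 (-0.97 ± 0.22, adjusted p = 0.0428). For C5ar1 the females had 8.48, 13.7 and 33.9 FPKM and the males 31.1, 39.9 and 71.9. Only SST-F reached the male range, and C5ar1 had the largest difference of the members (-1.51 ± 0.35, adjusted p = 0.0437). C3ar1 differed by -0.96 ± 0.24 (adjusted p = 0.0518).

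C1qa, whose male values ran from 47.9 to 454 FPKM around the female range of 57.6 to 173, differed by -0.44 ± 0.55 (adjusted p = 0.639). C4b (0.16 ± 0.28, adjusted p = 0.748) and Serping1 (0.10 ± 0.40, adjusted p = 0.892) did not pass either. The 3 calls lay close to the threshold. All 3 were lost without the filter on low values (adjusted p = 0.0541 for C1qb, 0.0551 for C5ar1 and 0.05005 for Itgam), with quantile normalization (C1qb -0.84, C5ar1 -1.29 and Itgam -0.61) and with all male controls (-0.45, -0.55 and -0.70). Without SST-F, 5 members passed, C1qc and C3ar1 being added. Without SST0-M with SST1-M the call of C5ar1 was lost (-1.18, adjusted p = 0.0805). Without the male SST3-M none passed (C1qb -0.83, adjusted p = 0.125; Itgam -0.82, adjusted p = 0.119; C5ar1 -1.59, adjusted p = 0.0959). Against the dated males, C1qb (0.12, adjusted p = 0.761) and C5ar1 (0.42, adjusted p = 0.322) changed sign. In that fit 6032 genes passed, against 493 in the main one. Among the 6032 were 2 other members, C1qa at -2.04 (adjusted p = 0.000665) and Serping1 at 1.08 (adjusted p = 0.0233).

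Microglia markers moved with these members. The mean of 11 of the 12 markers was 7.26 to 8.07 in females and 8.20 to 8.89 in numbered males on the log2 scale. Each of these 11 was lower in females, 3 of them past the threshold. The 3 included Cx3cr1 (-1.16 ± 0.26, adjusted p = 0.0416) and Csf1r (-1.05 ± 0.20, adjusted p = 0.0214); P2ry12, Tmem119 and Aif1 gave -0.93, -0.90 and -0.88 without passing. Without SST-F 8 of the 11 passed, and without SST3-M Cx3cr1 (adjusted p = 0.107) and Csf1r (adjusted p = 0.0793) did not, nor did Cx3cr1 without SST0-M with SST1-M (adjusted p = 0.0626). With that mean as a covariate, an alternative added after the data were seen, C1qb differed by -0.09 ± 0.24 (adjusted p = 0.862), C5ar1 by -0.59 (adjusted p = 0.610) and Itgam by -0.11 (adjusted p = 0.820), and no member passed. With the mean of all 12 markers as the covariate 5 passed, when 1133 genes did. The 11-marker mean did not overlap between females and numbered males, so the 11-marker fit cannot tell sex and marker level apart. C1qb also went closely with that mean over all samples (r = 0.915).

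The second comparison set nonstressed Sst against nonstressed Pvalb samples. One member of 8 tested, C1qc, was lower in Sst samples, when 7.80% of 14524 genes passed. C1qc had a lowest, median and highest value of 435, 712 and 1530.1 FPKM in 13 Sst samples and of 1083, 1653 and 1952 in 6 Pvalb samples. The ranges overlapped through 2 of the numbered male samples and SST-F, and the difference was -1.09 ± 0.26 (SE, adjusted p = 0.0151). C1qb (-0.81 ± 0.26, adjusted p = 0.0563), Itgam (-0.66 ± 0.24, adjusted p = 0.0827) and C5ar1 (-0.71 ± 0.35, adjusted p = 0.212) gave differences of the same sign that did not pass. C3ar1 (-0.19), C1qa (-0.25), C4b (0.19) and Serping1 (0.48) were smaller still and had adjusted p of 0.467 or more. The median of the 8 was -0.46, against 0.0036 over all genes.

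This comparison depended on which Sst samples were used. With females as the Sst samples 3638 genes passed, against 1133 with all Sst samples. Among the 3638 were 4 members: C1qb (-1.02, adjusted p = 0.000892), C1qc (-1.31, adjusted p = 0.000841), C5ar1 (-0.97, adjusted p = 0.0113) and Itgam (-0.99, adjusted p = 0.000589). Numbered males share sex label and title kind with the Pvalb samples. With them as the Sst samples 13 genes and no member passed, and C1qb (0.003) and Itgam (-0.01) were near 0. The call of C1qc was also lost without the 3 Pvalb samples rich in Xist (-0.86, adjusted p = 0.357). Without SST0-M with SST1-M 3 members passed, and without PV0-M with PV2-M 2 did. The 11 microglia markers had means of 8.07 to 8.51 in Pvalb samples, and all 12 markers had lower values in Sst samples, none past the threshold (2 without PV0-M with PV2-M, 1 without SST0-M with SST1-M). With the 11-marker mean as a covariate C1qc gave -0.51 (adjusted p = 0.0854).

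The third comparison addressed 14 days of CUS in male Sst samples. With title kind as a covariate the differences equal those against the dated controls, and the numbered controls add only to the estimate of the spread. None of the 8 members tested passed, with limma and title kind as a covariate, and none had an unadjusted p below 0.05; 0.00698% of 14319 genes passed, a single gene. C1qb was 386, 422 and 442 FPKM after CUS and 452, 541 and 1004 in the dated controls. Itgam was 123, 139 and 151 FPKM after CUS against 164, 171 and 363, and C1qc 385, 425 and 459 against 488, 537 and 1019.7. These genes went together across the samples (Pearson r = 0.896 to 0.976), so they are not separate results. Of the controls, SS04031R lay far above SST040241L and SST04241LL. It is also the only control whose title has the stem of the CUS titles, SS04031LL, SS04031RL and SS04031RR. The 95% confidence intervals of the differences held 0: -1.34 to 0.16 for C1qb, -1.39 to 0.07 for Itgam and -1.35 to 0.13 for C1qc.

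C1qa was 319, 336 and 341 FPKM after CUS and 382, 412 and 846 in the dated controls (-0.62, interval -2.18 to 0.94). C3ar1 gave -0.54 (-1.29 to 0.20) and C5ar1 -0.41 (-1.19 to 0.38). C4b, at 3.13, 3.44 and 3.63 FPKM after CUS, gave 0.29 (-0.58 to 1.15) and Serping1 0.68 (-0.28 to 1.63). Without SS04031R the difference was -0.25 for C1qb, -0.28 for C1qc, -0.29 for Itgam and -0.15 for C3ar1, and each of these is nearer to 0 than with it. The dated controls then left do not share the title stem of the CUS samples, so stem and stress cannot be told apart there. All 11 microglia markers tested were lower after CUS, with a median of -0.61 and none past the threshold, and in SS04031R Cx3cr1 reached 1253 FPKM. Against the numbered controls alone 5 members passed (C1qb, C1qc, C3ar1, C5ar1 and Itgam), when 2309 genes did. There stress and title kind cannot be told apart.

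**Figure D3:**
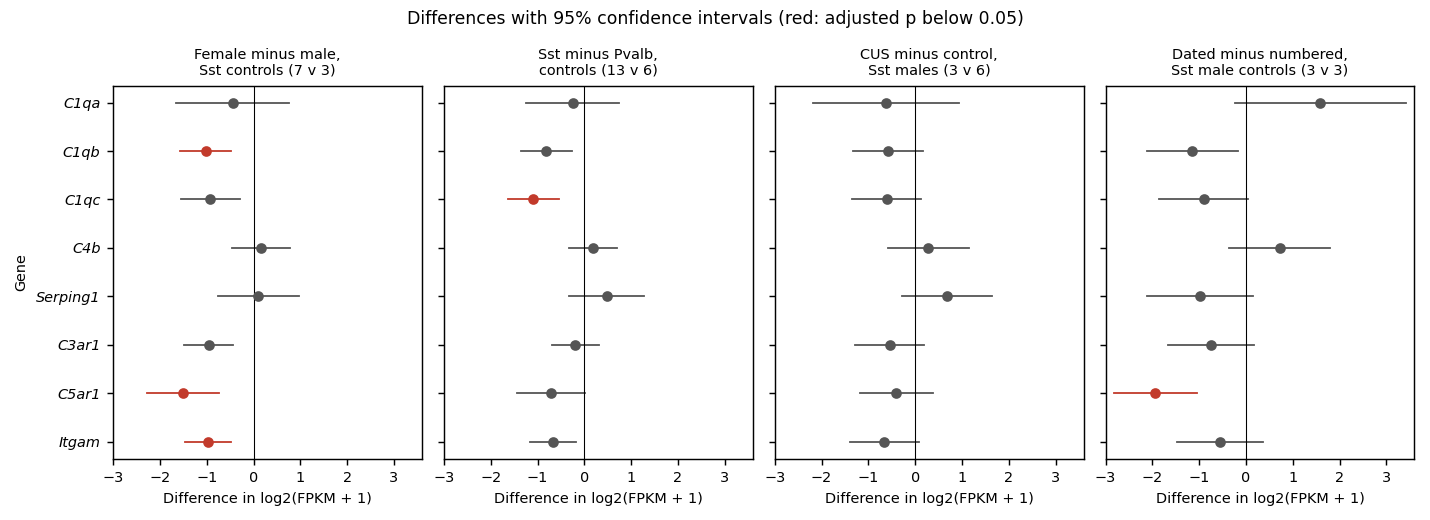
Difference in log2(FPKM + 1) (horizontal axes) with 95% confidence interval for 8 members (vertical axis) in the 4 comparisons, red where the adjusted p was below 0.05. C1qb, C5ar1 and Itgam pass between the sexes, C1qc between the lines, none after CUS and C5ar1 between title kinds.

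The title kind itself was compared within the nonstressed male Sst samples. C5ar1 alone, of 8 tested, differed, when 4.11% of 14230 genes passed. It was 8.31, 10.1 and 15.6 FPKM in the dated and 31.1, 39.9 and 71.9 in the numbered samples (-1.93 ± 0.38, adjusted p = 0.0398). Leaving out any 1 of the samples other than SST0-M with SST1-M raised its adjusted p to between 0.0674 and 0.170 while the difference stayed between -2.19 and -1.75. C1qb, at 452 to 1004 FPKM in the dated and 1130.3 to 1805 in the numbered samples, gave -1.14 ± 0.42 (adjusted p = 0.155). C1qa had the opposite sign, at 382, 412 and 846 against 47.9, 219 and 454 FPKM (1.59 ± 0.78, adjusted p = 0.268). The remaining members gave -0.90 (C1qc), -0.75 (C3ar1), -0.55 (Itgam), -0.98 (Serping1) and 0.73 (C4b) and did not pass.

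Across the 22 samples, Itgam, C1qc and C1qb had the highest correlations with the mean of the 11 microglia markers (Pearson r = 0.960, 0.919 and 0.915), followed by C3ar1 (0.811) and C5ar1 (0.755). C1qa had 0.240, Serping1 -0.255, C4b -0.536 and C3 -0.847. C3 was below 0.4 FPKM in every sample, so its correlation rests on levels near the floor. That of C1qa mixes the title kinds. Among dated samples the log2 level of C1qa ran from 8.32 in SS04031RL (marker mean 7.26) to 9.73 in SS04031R (8.69). All these correlations are descriptions over samples that share lines, title kinds and depth, and they were not tested. The genes most like the mean of the C1q chains, among 9423 genes above 5 FPKM, were Pld4 (0.978), Hps4 (0.975), Fgd2 (0.961), Rasal3 (0.957) and Il6ra (0.954).

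**Figure D4:**
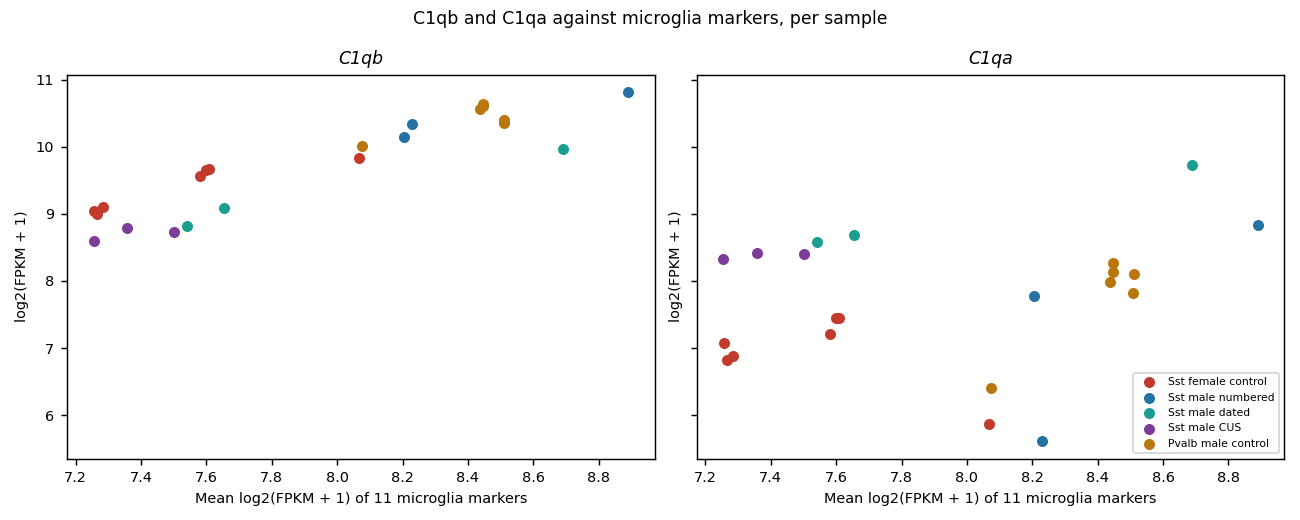
log2(FPKM + 1) of C1qb (left) and C1qa (right) on the vertical axes against the mean of 11 microglia markers on the horizontal axes, 1 point per sample, coloured by set. C1qb rises along the axis (r = 0.915). Over all samples C1qa hardly rises (r = 0.240), but it rises among the dated samples, where it is high for its marker level. It also rises among numbered samples other than SST-F, SST0-M with SST1-M and PV0-M with PV2-M, which lie low.

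The rest of the complement system was followed by a list of 44 other genes, of which 41 are in the table and 20 had a mean above 0.4 FPKM over all samples. Among the highest were the soluble regulators Clu (412 FPKM) and Vtn (74.4) and the receptor chain Itgb2 (61.8), the beta subunit that pairs with Itgam. Between the sexes 2 of 19 tested passed, Vtn and C1s1, both higher in females. Other sample sets also gave genes lower in females. Without SST-F 4 of 18 passed as higher and 2 as lower, and without SST0-M with SST1-M 3 and 2 of 20. Against the dated males it was 6 and 2 of 20. Without SST3-M 1 of 18 passed, as higher. Vtn was 84.8 to 229 FPKM in females and 12.9 to 30.1 in numbered males (2.45 ± 0.32, adjusted p = 0.00404), and C1s1, a C1 protease, was 0.748 to 2.52 against 0 to 0.0278 FPKM (1.18 ± 0.23, adjusted p = 0.0255). The dated males ran from 2.21 to 162 FPKM for Vtn, around the female range, and against them Vtn did not pass (1.46, adjusted p = 0.283), while C1s1 did (0.92, adjusted p = 0.00789). Without SST3-M the call of C1s1 was lost (adjusted p = 0.0792). Endothelial and pericyte markers moved the same way: all 7 were higher in females than in numbered males, with a median of 1.08, and Cldn5 (1.92, adjusted p = 0.00068) and Pdgfrb (1.48, adjusted p = 0.00267) passed. Their part in the difference of Vtn and C1s1 was not tested. Between the lines 3 of 20 passed, all lower in Sst: Cfb, the protease of the alternative pathway (-1.06 ± 0.19, adjusted p = 0.00326), Susd4, a membrane regulator (-1.32 ± 0.27, adjusted p = 0.00605), and Itgax, the alpha chain of complement receptor 4 (-1.02 ± 0.29, adjusted p = 0.0345). None of these calls held without the 3 Pvalb samples rich in Xist, where the differences were -0.89, -1.42 and -1.38 (adjusted p = 0.162, 0.133 and 0.155), or with numbered males as the Sst samples (-1.12, -1.17 and -0.55; adjusted p = 0.248, 0.326 and 0.564), and that of Itgax was lost without PV0-M with PV2-M (-0.75, adjusted p = 0.0576). Pan-neuronal markers were also lower in Sst, all 6 of them, with a median of -1.29, and Rbfox3 (-1.79, adjusted p = 0.0216) and Snap25 (-1.87, adjusted p = 0.0224) passed. Endothelial and pericyte markers were higher in Sst, all 7 of them, with a median of 2.05 and 4 past the threshold. Without the 3 Xist-rich samples the medians were -0.45 and 1.44 and none of either list passed. The part of these cell types in the differences was not tested. None of 19 passed after CUS and none of 18 between title kinds. The median differences of the other complement genes were 0.34 (sex), -0.09 (line), -0.07 (CUS) and -0.17 (title kind).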

How the data were processed

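RNA-seq of FACS-sorted tdTomato-positive cells was analysed in 24 libraries; 6 further labelled libraries are not analysed here. The authors deposited FPKM per gene. Their Methods name trimming, TopHat2 with mm9 for annotation, HISAT2 on mm10, StringTie and ComBat; the submitters' processing notes name TopHat2, Cufflinks and Cuffdiff on mm10. Whether ComBat touched the deposited FPKM is not stated. The FPKM table holds no counts, so the depth per library is unknown; steps among low values gave an approximate relative depth of 0.457 to 2.48 (SST2-F near 1). An exact 0 can be a failed estimate.

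Pairs of libraries were averaged where the SD of their log2 ratio (genes above 5 FPKM) was below 10% of the next smallest in the group: SST0-M with SST1-M (SD 0.0212) and PV0-M with PV2-M (SD 0.0170). The test was limma 3.58.1 (R 4.3.3, trend and robust) on log2(FPKM + 1), for genes whose mean exceeded 0.4 FPKM in the samples of a comparison, two-sided, Benjamini-Hochberg adjusted, threshold 0.05. These differences understate changes of low genes. The code was tested on simulated data. Ratios were tested with scipy 1.17.1, and values were tabulated in Python 3.11.15.

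The 8 members tested are named in every comparison, and C3, below the 0.4 FPKM limit, was left out of them. Other complement genes are named where they passed (at most 5 per comparison), and microglia markers beside them. Likeness is the Pearson r over 22 samples. Members and lists were chosen with earlier results of these data known. Some listed genes are not reported here by name, among them the 1 marker left out of the 11-marker mean. Alternatives were pseudocounts of 0.1 and 5, no filter, other scalings, marker covariates, other sample sets, left-out samples and a block by title number. Samples with the same title number did not deviate together, so they were not treated as pairs.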

Additional observations from a re-analysis of the deposited data

Results flagged for a closer look

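Of 33 combinations of a gene or ratio with a control group, 9 held a sample set apart by its gap to the others (Dixon's criterion; chance gives about 1 in 20), and these fell on SST-F, the averaged PV0-M with PV2-M, and SST04241LL. SST-F, among the 7 Sst females, had C3ar1 at 68.4 FPKM (others 32.2 to 36.9) and C5ar1 at 33.9 FPKM (others 8.48 to 16.6). Its C1qa to C1qb ratio was 0.063 (others 0.194 to 0.254) and its C1qc to C1qb ratio 1.23 (others 0.854 to 0.935). PV0-M with PV2-M, among the 6 Pvalb samples, had C1qa at 84.0 FPKM (others 225 to 308), Serping1 at 6.34 FPKM (others 0 to 1.98), C3 at 0.0416 FPKM (others listed at 0) and a C1qa to C1qb ratio of 0.0812 (others 0.167 to 0.203). SST04241LL, among the 6 male Sst controls, had C3 at 0.122 FPKM (others 0 to 0.0406), below the 0.4 FPKM limit.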

How the results depend on the processing

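Of 504 differences of single members recomputed under an alternative, 408 kept their direction and their side of the threshold, 42 changed sign, 19 newly passed and 35 no longer passed. A difference that was not called counts as kept when it stays uncalled. The 35 can only come from the members called as reported: 21 from the 3 between the sexes, 6 from the 1 between the lines and 8 from the 1 between title kinds. Of 126 counts, 66 stayed within 1.5 times and 60 did not. The causes were not tested. Depth is unknown without counts, 3 samples per arm limit the CUS and title comparisons, and C3 lies below the 0.4 FPKM limit. The 11-marker covariate and the sets without SST-F, SST0-M with SST1-M or PV0-M with PV2-M, and the sets for ratios, other complement genes and markers, were chosen after seeing the data. Members called between the sexes (3 as reported) numbered 0 without the filter, 0 with quantile normalization, 5 with the 12-marker covariate, 0 with the 11-marker covariate and 0 with all males. All genes called between the sexes (493 as reported) numbered 1133 with the 12-marker covariate, 43 with the 11-marker covariate, 1699 with all males and 6032 against dated males. Signs between the sexes turned with quantile normalization for C4b (-0.18) and Serping1 (-0.095), with the 11-marker covariate for C1qa (0.068), C1qc (0.25) and C4b (-0.72), with all males for C4b (-0.20), against dated males for C1qb (0.12), C4b (-0.56) and C5ar1 (0.42). Log2 ratio differences between the sexes turned with all males for C1qa to C1qb (-0.79) and C1qc to C1qb (-0.019), against dated males for C1qa to C1qb (-2.16) and C1qc to C1qb (-0.14). Leaving out single samples between the sexes gave ranges of 0 to 5 for members called, 100 to 1787 for all genes called, -1.34 to 0.27 for C1qa, -0.35 to 0.38 for Serping1, -0.28 to 0.84 for C1qa to C1qb. Members called between the lines (1 as reported) numbered 0 with the 12-marker covariate, 0 with the 11-marker covariate, 0 with Sst males, 4 with Sst females, 0 with numbered Sst males and 0 without the Xist-rich samples. All genes called between the lines (1133 as reported) numbered 4 with the 12-marker covariate, 429 with the 11-marker covariate, 491 with Sst males, 3638 with Sst females, 13 with numbered Sst males and 14 without the Xist-rich samples. Signs between the lines turned with the 12-marker covariate for C1qb (0.23), C4b (-0.78), C3ar1 (0.49), C5ar1 (0.36) and Itgam (0.026), with the 11-marker covariate for C1qa (0.28), C4b (-0.038) and C3ar1 (0.30), with Sst males for C1qa (0.42) and C3ar1 (0.13), with numbered Sst males for C1qb (0.0031), C4b (-0.069), C3ar1 (0.50) and C5ar1 (0.55), without the Xist-rich samples for C1qa (0.092) and Serping1 (-0.38). Log2 ratio differences between the lines turned with numbered Sst males for C1qa to C1qb (-0.39). Leaving out single samples between the lines gave ranges of 1 to 3 for members called, 1305 to 2130 for all genes called. Members called after CUS (0 as reported) numbered 5 against numbered controls. All genes called after CUS (1 as reported) numbered 2309 against numbered controls and 6 against controls of both sexes. Signs after CUS turned with the 12-marker covariate for C1qa (0.28) and C4b (-0.28), with the 11-marker covariate for C1qa (0.28) and C4b (-0.28), without the title covariate for C1qa (0.18), against numbered controls for C1qa (0.97) and Serping1 (-0.30), against controls of both sexes for C1qa (0.84) and Serping1 (-0.13). Log2 ratio differences after CUS turned without the title covariate for C1qa to C1qb (1.34) and C1qc to C1qb (0.10), against numbered controls for C1qa to C1qb (2.71) and C1qc to C1qb (0.22). Leaving out single samples after CUS gave ranges of 1 to 3 for all genes called, -0.093 to 0.56 for C4b. Members called between title kinds (1 as reported) numbered 0 without the filter, 0 with the 12-marker covariate and 0 with the 11-marker covariate. All genes called between title kinds (585 as reported) numbered 381 without the filter, 1110 with quantile normalization, 254 with the 12-marker covariate and 254 with the 11-marker covariate. Leaving out single samples between title kinds gave ranges of 0 to 1 for members called, 54 to 1962 for all genes called.

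The replicate block by title number (numbers 1, 3 and 4 shared) gave between the sexes 0 members called, 11 genes called, Serping1 at -0.41, and between the lines 0 members called, 10 genes called, C4b at -0.18, C3ar1 at 0.60, C5ar1 at 0.78, Itgam at 0.023. Pairing by number was not borne out, since the deviations of same-numbered samples correlated between -0.0486 and 0.0496 in the sexes and between -0.0440 and 0.123 in the lines.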
